A study of Mus musculus with 36 samples.

Results

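The chromatin of 5 inflammatory cytokine genes was followed through T cell activation, exposure to regulatory T cells (Treg) and loss of HP1α or HP1γ. The genes were Csf2 and Il3, which lie next to each other on mouse chromosome 11, and Tnf, Lta and Ltb, which form a cluster on chromosome 17. Members were the ATAC-seq peaks whose midpoint was nearest to a protein-coding transcription start site (TSS) of one of these genes, or that overlapped its gene body, in GENCODE vM39 on GRCm39. The rule found 31 of 71509 consensus peaks, 19 for Csf2, 4 for Il3, 2 for Tnf, 4 for Lta and 2 for Ltb. The rule uses positions only, while the 5 genes were chosen with earlier results of these data known. A peak is named by its gene and by the distance of its midpoint from the TSS, with a minus sign upstream, and a peak that covers the TSS is called the TSS peak.

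Csf2 encodes GM-CSF, a growth and activating factor for myeloid cells that helper T cells secrete, and Il3 encodes interleukin 3, a growth factor for several haematopoietic lineages. Both act on receptors that share a β chain. Tnf encodes TNF, made as a membrane protein and shed by the protease ADAM17, and Lta encodes lymphotoxin α, which is secreted alone or held at the cell surface by lymphotoxin β, the product of Ltb. In T cells these genes are classical targets of antigen receptor signalling, which acts through NFAT, AP-1 and NF-kB factors, and HP1 proteins bind histone H3 methylated on lysine 9 and help to keep chromatin compact.

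ATAC-seq, in which a transposase cuts accessible DNA, was run on CD4 T cells from mouse spleen in 12 groups of 3 libraries each, set by line, genotype and condition. In the HP1α line (HP1a in the labels) the knockout (KO) mice lacked Hp1a in all tissues, after a CMV-driven Cre had excised the floxed allele, and the wild-type (WT) mice were Hp1a+/+ littermates. In the HP1γ line (HP1g) the KO mice were homozygous for floxed Hp1g and carried Cd4-cre, which deletes it in T cells, and the WT mice carried the same floxed alleles without Cre. Both lines were kept on a mixed 129/Sv and C57BL/6 background, and littermates were sex-matched and 6 to 12 weeks old. The naive groups were naive CD4 T cells, and the Tconv groups were the donor-specific (TCR Vβ6+) progeny of such cells, sorted from the spleen 3 weeks after transfer with bone marrow of 2 genotypes into irradiated C57BL/6 hosts. In the TconvTreg groups, called Tconv with Treg here, WT Treg expanded ex vivo had been injected together with the Tconv. The labels number the replicates without saying what a number stands for, so a p-value measures the spread between these libraries.

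Depth ran from 1.49 to 96.8 M reads in peaks (median 54.8 M). The study left out 3 of the 36 libraries for low quality, all from the HP1α line with Treg, where 1 KO and 2 WT libraries remained, and the shallowest library, HP1α WT with Treg replicate 2, was kept. Of 7 CD4 T cell markers all had a TSS peak above 0 in every library. Over those peaks the summed signal per kb was 48.9 to 85.4 CPM in HP1α WT Tconv with Treg, against 122.1 to 138.7 in naive HP1α WT cells. The Cd4 TSS peak was at 53.8 to 76.9 CPM per kb in HP1γ KO libraries and 8.46 to 12.5 in HP1γ WT libraries, and the KO mice carry a Cd4-driven transgene. The TSS peak of Pax5, the only 1 of 6 B cell markers with such a peak, was highest in HP1α WT Tconv with Treg, at 12.1 to 15.6 CPM per kb against 1.77 to 11.7 in all other groups. In bulk samples, fewer accessible cells and less signal per cell cannot be told apart.

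The 2 loci differ in layout. Csf2 (ENSMUSG00000018916.6, chr11:54138097-54140493) and Il3 (ENSMUSG00000018914.6, chr11:54156129-54158103) are both on the minus strand with their TSS 17.6 kb apart, and their 23 peaks spread over 95.9 kb. Ltb (ENSMUSG00000024399.7, chr17:35413382-35415296, plus strand), Tnf (ENSMUSG00000024401.15, chr17:35418357-35420983, minus strand) and Lta (ENSMUSG00000024402.7, chr17:35422141-35424327, minus strand) have their TSS within 10.95 kb, and their 8 peaks span 29.0 kb. Peaks were narrow on chromosome 11, with a median of 510 bp, and broad on chromosome 17, with a median of 2125 bp, against 750 bp over all peaks. The Csf2 TSS peak (chr11:54139581-54140880) covers 2 exons of Csf2, the Tnf, Lta and Ltb TSS peaks cover exons of their own gene, and the other 27 peaks touch no member gene. No peak covers the Il3 TSS, so the peak just upstream, Il3 -0.2 kb (chr11:54158131-54158480), stands for the promoter. The assignment depends on counting protein-coding genes only, since 23 of the 31 peaks, 17 of them on chromosome 11, are nearest to the TSS of a gene outside the 5 once genes of any type count, and the transcripts 4933405E24Rik or Gm57329 overlap all 23 Csf2 and Il3 peaks.

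Sequences are printed for the Csf2, Il3 and Tnf promoters, which contrast the 2 loci, and for the centres of 2 distal Csf2 peaks that carry the results below. Each promoter is the 250 bases before the GENCODE TSS and each centre the 300 bases around the midpoint of the peak, read from GRCm39 and written 5′ to 3′ on the minus strand, on which all 3 genes are transcribed. Capitals mark matches on either strand to AP-1 (TGANTCA), NFAT (GGAAA, or TTTCC when the match is on the opposite strand), NF-kB (GGG and CC with any 5 bases between), RUNX (TGTGGT), cAMP response element (TGACGTCA) and TATA box (TATAAA) motifs.
Csf2 promoter, chr11:54140494-54140743: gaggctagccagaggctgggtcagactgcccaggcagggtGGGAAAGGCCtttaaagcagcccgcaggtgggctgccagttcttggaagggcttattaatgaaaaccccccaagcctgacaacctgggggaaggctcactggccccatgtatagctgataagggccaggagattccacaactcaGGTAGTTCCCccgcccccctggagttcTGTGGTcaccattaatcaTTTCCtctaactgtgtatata
Il3 promoter, chr11:54158104-54158353: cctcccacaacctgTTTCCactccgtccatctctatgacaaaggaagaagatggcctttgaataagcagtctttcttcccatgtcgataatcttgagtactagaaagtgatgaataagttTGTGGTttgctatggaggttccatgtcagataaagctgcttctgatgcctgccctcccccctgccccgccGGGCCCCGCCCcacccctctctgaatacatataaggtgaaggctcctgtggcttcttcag
Tnf promoter, chr17:35420984-35421233: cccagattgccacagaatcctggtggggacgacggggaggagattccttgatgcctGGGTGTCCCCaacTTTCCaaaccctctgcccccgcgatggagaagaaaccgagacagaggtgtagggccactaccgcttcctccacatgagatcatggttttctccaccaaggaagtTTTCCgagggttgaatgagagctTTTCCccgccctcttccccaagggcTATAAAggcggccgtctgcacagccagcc
Csf2 -1.7 kb peak, chr11:54142061-54142360: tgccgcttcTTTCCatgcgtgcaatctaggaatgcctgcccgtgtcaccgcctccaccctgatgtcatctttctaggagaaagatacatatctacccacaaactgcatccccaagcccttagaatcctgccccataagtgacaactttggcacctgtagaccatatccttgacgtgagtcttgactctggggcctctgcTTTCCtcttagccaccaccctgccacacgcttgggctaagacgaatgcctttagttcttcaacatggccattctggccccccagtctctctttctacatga
Csf2 +12.4 kb peak, chr11:54127901-54128200: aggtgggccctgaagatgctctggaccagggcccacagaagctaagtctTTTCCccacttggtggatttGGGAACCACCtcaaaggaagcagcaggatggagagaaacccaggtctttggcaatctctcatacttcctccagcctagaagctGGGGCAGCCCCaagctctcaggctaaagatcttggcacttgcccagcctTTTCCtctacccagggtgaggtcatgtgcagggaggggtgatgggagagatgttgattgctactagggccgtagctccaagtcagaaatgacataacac
The Csf2 promoter holds 2 NFAT, 2 NF-kB and 1 RUNX match, and one NF-kB match (GGGAAAGGCC) overlaps an NFAT match. In the Il3 promoter the 2 NF-kB matches overlap each other, beside 1 NFAT and 1 RUNX match. The Tnf promoter has 3 NFAT matches, an NF-kB match that reads on both strands and a TATA box 29 bases before the TSS, the Lta promoter 2 NFAT, 2 overlapping NF-kB and 1 TATA match, and the Ltb promoter none of the 6 motifs. Such letters are common: among 32851 RefSeq promoters of the same length (GRCm38.p6), 55.6% hold the NFAT letters, 45.8% the NF-kB letters, 14.1% RUNX, 12.4% TATA, 6.75% AP-1 and 1.55% the cAMP response element. RefSeq and GENCODE place the start of Tnf and Lta at the same base and that of Il3 2 bases apart. For Csf2 and Ltb the compared stretch was not found in the RefSeq promoter, so no distance is given. In the centres of the 31 peaks the NFAT letters were found in 22, NF-kB in 12, RUNX in 11, AP-1 in 5, TATA in 3 and the cAMP response element in 0, against 63.6%, 39.3%, 30.1%, 13.0%, 13.0% and 0.832% of 71410 peak centres. A match describes letters and is not evidence of binding.

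Levels are given as reads of a peak per 1 M reads in peaks (CPM), scaled once over all 36 libraries by the TMM method, and per kb of peak where peaks are compared. The 3 TSS peaks on chromosome 17 were open in every group. In naive HP1γ WT cells Tnf stood at 23.4, Lta at 30.7 and Ltb at 20.8 CPM per kb, as means of 3 libraries, when Csf2 TSS stood at 4.98 and Il3 -0.2 kb at 0.414. The levels of Csf2 and Il3 thus lay below those of the other 3 genes before activation. In HP1γ WT Tconv the same means were 31.6, 30.7 and 23.9 CPM per kb for Tnf, Lta and Ltb, 14.5 for Csf2 TSS and 3.97 for Il3 -0.2 kb.

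**Figure D1:**
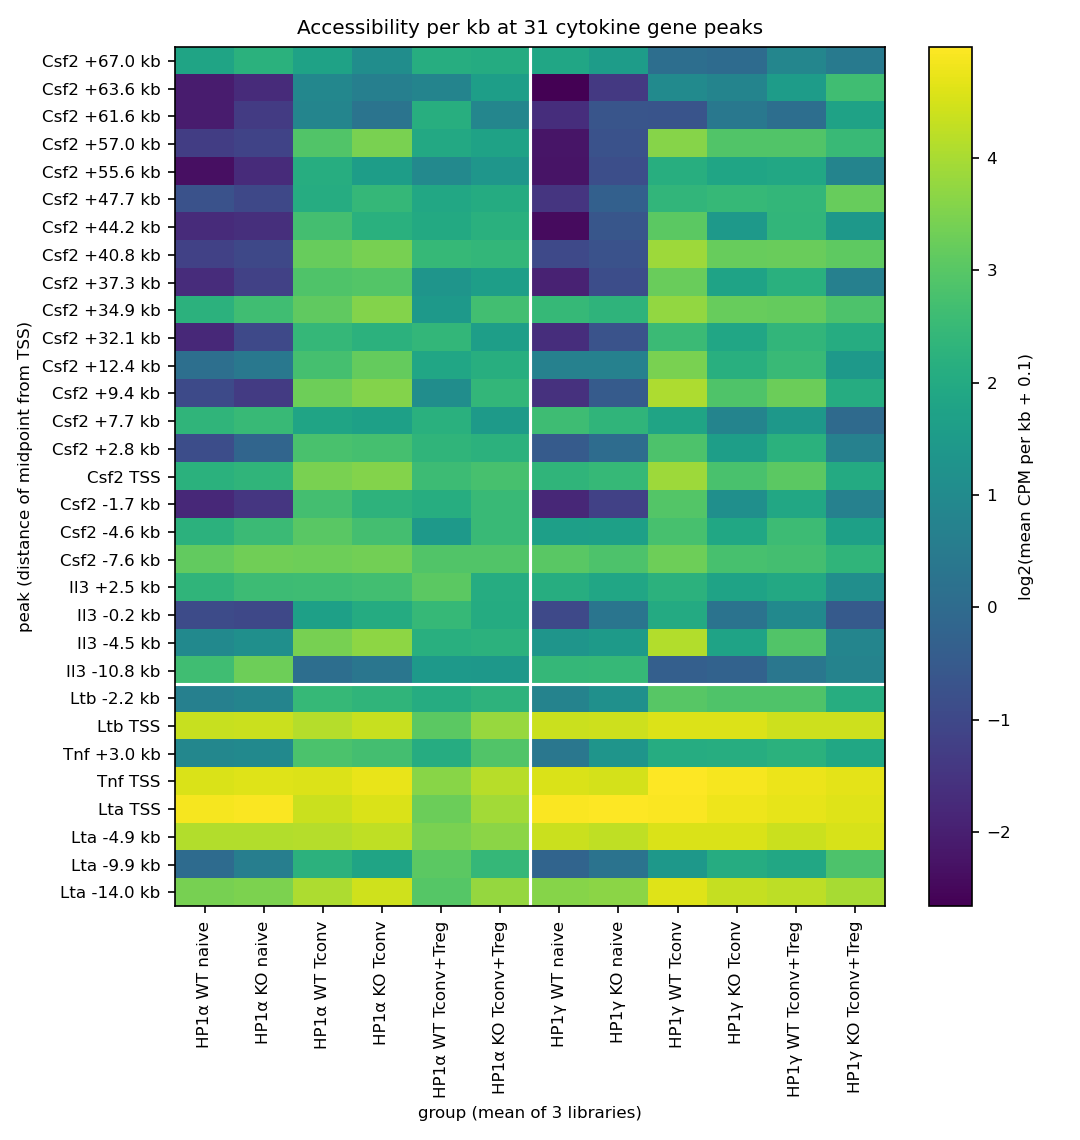
Mean accessibility per kb (colour, log2 of CPM per kb plus 0.1) of the 31 peaks (rows, chromosome 11 above the white line) in the 12 groups (columns, HP1α left and HP1γ right, 3 libraries each, libraries left out by the study included). Most distal Csf2 peaks are dark in the naive columns and lighter in the Tconv columns, while the Tnf, Lta and Ltb TSS peaks are light in all.

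Ordered by group mean, the Csf2 TSS peak was highest in HP1γ WT Tconv, at 18.9 ± 3.09 CPM (SD, n = 3). It was followed by HP1α KO Tconv at 15.3 ± 4.22 and HP1α WT Tconv at 14.2 ± 3.57, then by HP1γ WT Tconv with Treg at 10.8 ± 4.48, HP1γ KO Tconv at 8.86 ± 1.38, and HP1α KO and WT Tconv with Treg at 8.70 ± 2.02 and 7.65 ± 4.79 CPM. The naive groups came next, at 7.03 ± 1.07 in HP1γ KO, 6.47 ± 0.486 in HP1γ WT, 6.44 ± 0.101 in HP1α KO and 5.90 ± 0.379 in HP1α WT, and HP1γ KO Tconv with Treg was lowest at 5.10 ± 0.813. Of the 11 pairs of neighbours in this order 10 overlapped, and only the 2 naive HP1α groups did not. The Il3 -4.5 kb peak ran from 14.3 ± 8.73 CPM in HP1γ WT Tconv to 1.40 ± 0.405 in HP1γ KO Tconv with Treg, and all 11 neighbouring pairs overlapped.
The Tnf TSS peak had a flatter order, from 90.01 ± 3.38 CPM in HP1γ WT Tconv through 63.9 ± 4.08 in naive HP1γ KO cells to 34.9 ± 5.005 in HP1α WT Tconv with Treg, with all neighbours overlapping. Lta was highest in naive HP1γ KO cells at 66.9 ± 3.82 and Ltb in HP1γ WT Tconv at 110.5 ± 6.97 CPM, and both were lowest in HP1α WT Tconv with Treg, at 20.7 ± 2.91 and 37.9 ± 2.99 CPM, which overlapped no other group.

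**Figure D2:**
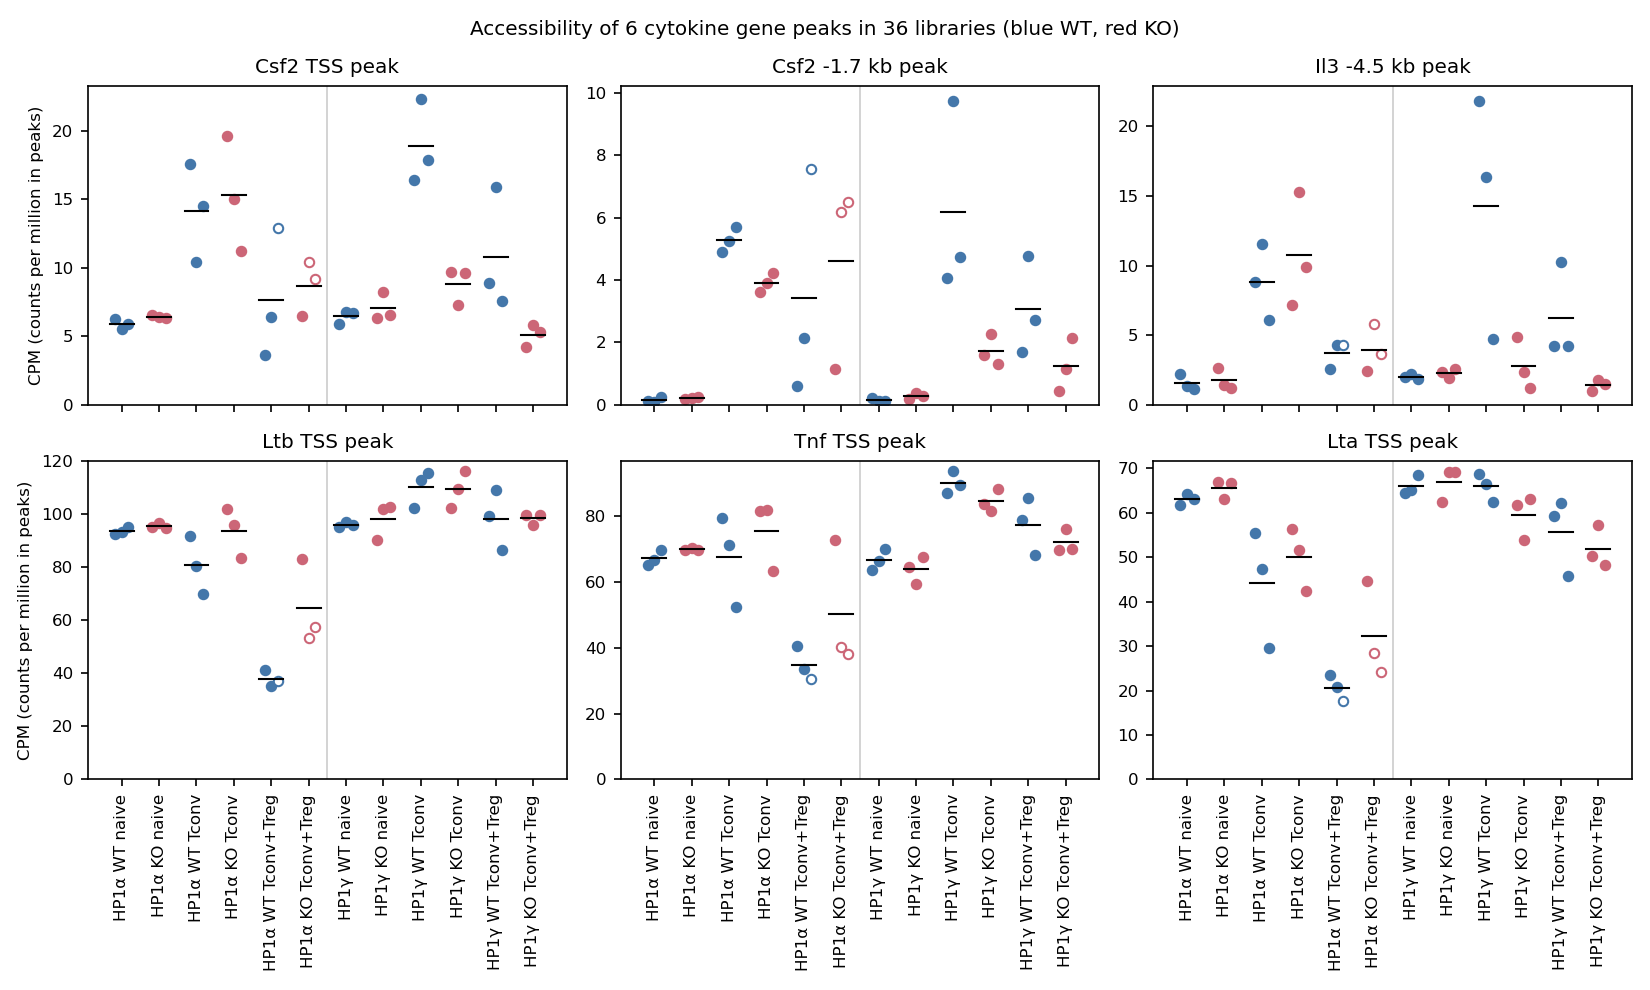
CPM of 6 peaks (panels, linear axis from 0) in each of the 36 libraries, by group on the horizontal axis. Points are libraries (blue WT, red KO, open points left out by the study) and bars are group means: HP1γ KO Tconv libraries lie below all HP1γ WT Tconv libraries at the Csf2 TSS and Csf2 -1.7 kb peaks, and the 3 open points at Csf2 -1.7 kb lie above the HP1α Tconv libraries.

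To see what loss of HP1γ does to these genes in activated cells, KO and WT Tconv were compared without Treg. Chromatin of Csf2 and Il3 was less accessible in KO cells: 9 of their 23 peaks were called lower and 0 higher, while 0 of the 8 Tnf, Lta and Ltb peaks were called. A call means an adjusted p under 0.05 in the quasi-likelihood test of edgeR, fitted on all peaks, and an absolute log2 fold change over 1. Over all peaks tested 3.35% were called, 1.66% as lower. The median log2 fold change was -0.80 over the Csf2 and Il3 peaks, -0.04 over the Tnf, Lta and Ltb peaks and 0.02 over all peaks. In the same libraries the summed myeloid markers (4 of 7 with a peak) were at 28.5 to 33.2 CPM per kb in KO and 33.8 to 38.6 in WT and the CD8 T cell marker Cd8b1 at 3.25 to 3.77 and 1.79 to 2.92, without overlap, while the NK sum and Pax5 overlapped. Their part in the result was not tested.

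At the Csf2 TSS peak, WT Tconv libraries measured 16.4, 22.4 and 17.9 CPM and KO libraries 9.69, 7.26 and 9.62 CPM. Every KO library lay below every WT library. The log2 fold change was -1.04 (SE 0.19, adjusted p = 0.00464) by edgeR, just past the fold limit, and it came to -0.99 with library size as the only scaling, to -0.92 without WT replicate 2 and to -0.94 without KO replicate 2. The peak just upstream, Csf2 -1.7 kb (chr11:54141801-54142620), measured 4.05, 9.74 and 4.72 CPM in WT and 1.61, 2.26 and 1.30 in KO, again without overlap, with a log2 fold change of -1.90 (SE 0.38, adjusted p = 0.00588) by edgeR.
Downstream of Csf2, 5 more peaks were called. Csf2 +12.4 kb measured 9.38, 10.1 and 6.49 CPM in WT and 2.48, 4.42 and 3.56 in KO (log2 fold change -1.34, SE 0.25, adjusted p = 0.00461, edgeR), and Csf2 +9.4 kb 11.99, 20.2 and 14.4 against 6.22, 7.51 and 6.82 (-1.17, SE 0.28, adjusted p = 0.0176, edgeR). In both, the highest KO library stayed under the lowest WT library. Weaker peaks moved alike, Csf2 +37.3 kb with 5.16, 8.52 and 3.88 CPM in WT and 2.53, 2.29 and 1.53 in KO (-1.51, SE 0.29, adjusted p = 0.00455, edgeR), Csf2 +44.2 kb with 1.95, 3.30 and 1.70 and 0.793, 0.855 and 0.557 (-1.701, SE 0.33, adjusted p = 0.00391, edgeR) and Csf2 +2.8 kb with 2.44, 3.90 and 2.70 and 1.13, 1.53 and 1.15 (-1.27, SE 0.31, adjusted p = 0.0229, edgeR). None of these 3 overlapped between genotypes.

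2 Il3 peaks were called, with wide spread between WT libraries. At Il3 -4.5 kb (chr11:54162201-54163040) WT Tconv measured 21.9, 16.3 and 4.75 CPM and KO Tconv 4.88, 2.32 and 1.18 CPM, a log2 fold change of -2.43 (SE 0.47, adjusted p = 0.00558) by edgeR. WT replicate 3 lay within the KO range, so the groups overlapped. At Il3 -0.2 kb the values were 2.17, 1.64 and 0.360 CPM in WT and 0.251, 0.671 and 0.223 in KO (-2.10, SE 0.54, adjusted p = 0.0245, edgeR), also with overlap through WT replicate 3, and the call was lost when WT replicate 1, KO replicate 1, WT replicate 2 or KO replicate 3 was left out. The other 2 Il3 peaks, +2.5 kb and -10.8 kb, had log2 fold changes of -0.57 (adjusted p = 0.222) and 0.09 (adjusted p = 0.939) by edgeR.

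In the Tnf, Lta and Ltb cluster the same libraries showed little difference. The Tnf TSS peak measured 87.0, 93.7 and 89.4 CPM in WT and 83.5, 81.7 and 88.2 in KO Tconv, and the Ltb TSS peak 103, 113 and 116 and 102, 109.7 and 116. The genotypes overlapped at both. Their log2 fold changes were -0.08 (95% interval -0.24 to 0.08) and 0.00 (-0.17 to 0.16), and that of Lta TSS, at 68.7, 66.6 and 62.5 CPM in WT and 61.7, 53.9 and 63.2 in KO, was -0.13 (-0.33 to 0.08). All 3 intervals stayed within 1 on the log2 scale. KO lay below WT in every library at 13 of the 31 peaks, 12 of them Csf2 or Il3 peaks, against 8.45% of all peaks.
The count of 9 came to 2 without KO replicate 3, to 5 without WT replicate 2, to 4 with the earlier quasi-likelihood method of edgeR and to 2 when only the groups compared were fitted. Csf2 +12.4 kb was called under all 15 alternatives, while Csf2 +9.4 kb and Csf2 +2.8 kb each lost the call under 5 and Il3 -0.2 kb under 7. Counting the peaks nearest to a member among genes of any type, 4 were called.

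**Figure D3:**
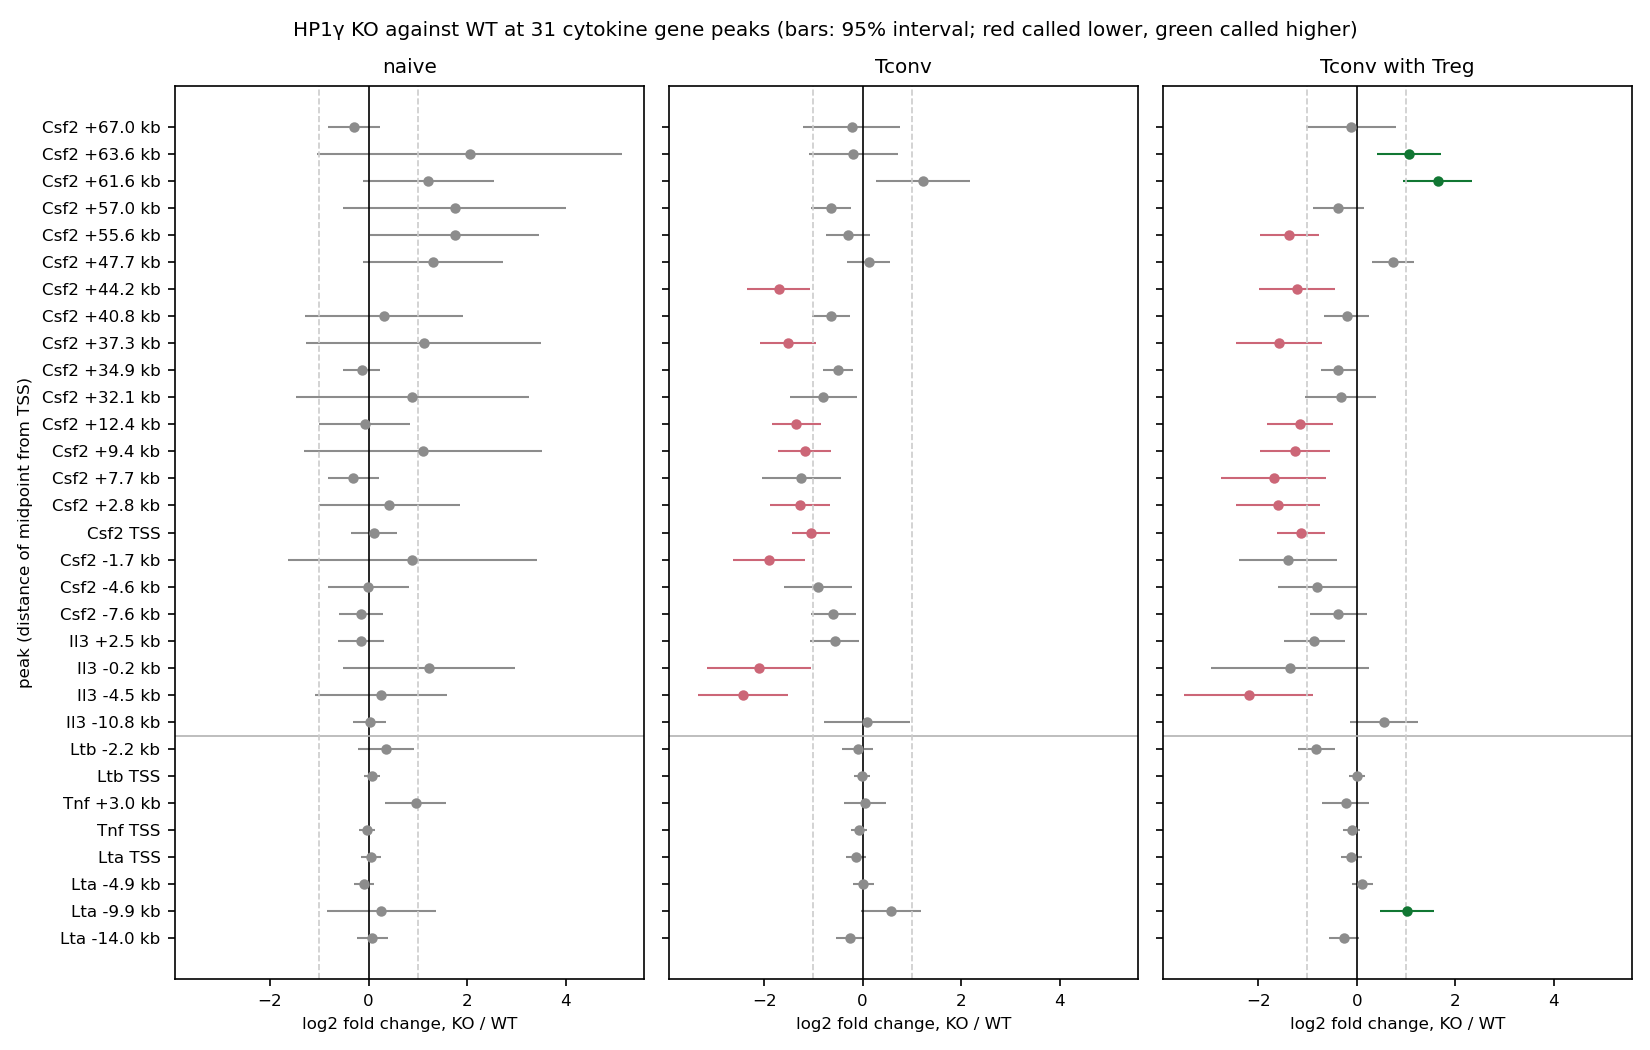
Log2 fold change of HP1γ KO against WT (horizontal axis, points, with 95% intervals as bars) for the member peaks (rows, Tnf, Lta and Ltb below the grey line) in naive cells, Tconv and Tconv with Treg (panels). Red peaks were called lower (0, 9 and 9) and green peaks higher (0, 0 and 3), dashed lines mark a log2 fold change of 1 either way, and Csf2 +44.2 kb is not drawn in naive cells, where the WT libraries held at most 3 reads.

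With Treg present, the comparison of HP1γ KO and WT used other libraries and again had Csf2 peaks lower in KO. There were 9 peaks lower, 8 of Csf2 and 1 of Il3, and 3 higher, against 11.9% of all peaks called, 5.38% lower and 6.48% higher. The median log2 fold change was -0.86 over Csf2 and Il3 peaks, -0.11 over Tnf, Lta and Ltb peaks and -0.02 over all peaks. Of the 9 peaks lower without Treg and the 9 lower with Treg, 7 were the same: Csf2 +44.2 kb, +37.3 kb, +12.4 kb, +9.4 kb and +2.8 kb, Csf2 TSS and Il3 -4.5 kb.
The summed level of the 5 Treg marker peaks overlapped between these libraries, at 78.7 to 86.2 CPM per kb in KO and 58.2 to 79.7 in WT. Single markers went both ways. Ctla4, at 21.9 to 25.0 in KO and 11.6 to 12.9 in WT, and Ikzf2, at 16.0 to 18.02 and 7.06 to 12.5, did not overlap. Il2ra leaned the other way with overlap, at 9.55 to 15.6 in KO and 14.7 to 25.5 in WT, and Foxp3 (17.6 to 19.1 and 17.5 to 19.7) and Nrp1 (11.4 to 13.8 and 7.39 to 13.1) overlapped. In Tconv without Treg the sums overlapped, at 73.5 to 82.5 in KO and 75.3 to 87.8 in WT, while Ikzf2 was higher in every KO library and Foxp3 and Il2ra lower. With Treg the summed myeloid and NK markers, Cd8b1 and Pax5 overlapped between genotypes. Of the single markers in these sums, Itgam, at 1.80 to 2.555 in KO and 4.09 to 6.175 in WT, and Klrd1, at 1.95 to 2.59 and 4.40 to 6.235, did not. The part of these markers in the results was not tested.

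The Csf2 TSS peak measured 8.89, 15.9 and 7.57 CPM in WT and 4.20, 5.79 and 5.30 in KO Tconv with Treg. The groups did not overlap, and WT replicate 2 stood above the other WT libraries. By edgeR the log2 fold change was -1.12 (SE 0.25, adjusted p = 0.00479). Il3 -4.5 kb measured 4.22, 10.2 and 4.24 CPM against 0.970, 1.77 and 1.46, without overlap (-2.19, SE 0.67, adjusted p = 0.0267, edgeR), and Csf2 +37.3 kb 1.70, 3.86 and 2.95 against 0.579, 1.09 and 1.14 (-1.58, SE 0.44, adjusted p = 0.0164, edgeR). WT replicate 2 was the highest library in all 3.
At Csf2 +12.4 kb the values were 2.97, 6.70 and 3.81 CPM in WT and 1.17, 2.28 and 2.85 in KO, at Csf2 +9.4 kb 5.11, 14.8 and 7.24 and 2.57, 4.41 and 4.60, and at Csf2 +2.8 kb 1.07, 3.36 and 1.28 and 0.391, 0.825 and 0.719. Their log2 fold changes by edgeR were -1.15 (adjusted p = 0.0242), -1.26 (adjusted p = 0.0199) and -1.60 (adjusted p = 0.0147), and none overlapped. The calls were lost under 4, 6 and 3 of 17 alternatives. Csf2 +55.6 kb (-1.36, adjusted p = 0.00386) and Csf2 +44.2 kb (-1.21, adjusted p = 0.0332) were lower with overlapping libraries, the latter call being lost under 10 of 17 alternatives, and Csf2 +7.7 kb (-1.69, adjusted p = 0.0348, edgeR) was lower at under 1 CPM in every library and lost its call under 8 of 17. Csf2 -1.7 kb, at 1.70, 4.78 and 2.71 CPM in WT and 0.443, 1.16 and 2.15 in KO, missed the threshold at -1.40 (SE 0.51, adjusted p = 0.0557) by edgeR.

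The 3 peaks higher in KO Tconv with Treg lay away from the promoters and were weak. Csf2 +63.6 kb measured 1.21, 1.97 and 1.24 CPM in WT and 4.31, 1.44 and 3.70 in KO (1.06, SE 0.33, adjusted p = 0.0267, edgeR), with overlap through KO replicate 2, and the call was lost under 9 of 17 alternatives. Csf2 +61.6 kb had 0.323, 0.299 and 0.190 against 1.16, 0.527 and 1.06 (1.64, SE 0.36, adjusted p = 0.00275, edgeR) and Lta -9.9 kb 0.809, 0.448 and 1.09 against 1.58, 1.32 and 1.54 (1.02, SE 0.28, adjusted p = 0.0146, edgeR), both without overlap. These 2 calls were lost under 1 and 6 of 17 alternatives. The TSS peaks of Tnf, Lta and Ltb had log2 fold changes of -0.10 (-0.27 to 0.07), -0.11 (-0.32 to 0.11) and 0.00 (-0.16 to 0.17), with 95% intervals within 1 of 0. Upstream of Ltb, the -2.2 kb peak fell short of the fold limit at -0.82 (SE 0.19, adjusted p = 0.00734) by edgeR, with 8.79, 9.26 and 6.00 CPM in WT and 4.90, 4.74 and 4.42 in KO and no overlap. KO lay below WT in every library at 9 of the 31 peaks, against 16.4% of all peaks, and above it at 3, against 15.3%.
The count of 12 calls came to 2 without KO replicate 1, to 1 without WT replicate 2, to 7 with depth as a covariate and to 2 when only the groups compared were fitted.

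In naive HP1γ cells 0 of the 31 peaks were called by edgeR, against 0.14% of all peaks, with 1 peak at an unadjusted p under 0.05 and 3 called by DESeq2. The Csf2 TSS peak measured 5.92, 6.81 and 6.69 CPM in WT and 6.30, 8.26 and 6.53 in KO, with overlap, and its log2 fold change was 0.11 (95% interval -0.36 to 0.58). Coverage of the distal Csf2 peaks was uneven here, from 0 to 9 reads a library at +63.6 kb to 254 to 916 at +34.9 kb. Csf2 -1.7 kb, with 6 to 20 reads a library, measured 0.216, 0.136 and 0.110 CPM in WT and 0.190, 0.368 and 0.273 in KO, and its interval of -1.64 to 3.42 allowed a difference in either direction. The median log2 fold change was 0.42 over the Csf2 and Il3 peaks, on the opposite side of 0 from Tconv, 0.07 over the Tnf, Lta and Ltb peaks and 0.03 over all peaks. Over the 31 peaks it was 0.26, also with Csf2 +44.2 kb at its lower bound, a KO level at least 3.74-fold higher than 3 reads in each WT library.

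Tconv were compared with naive cells of the same genotype, and the difference is called activation here. Transfer into irradiated hosts, 3 weeks there and the sort for TCR Vβ6 separate the same groups. Their effects cannot be told apart from that of activation. Peaks away from the promoters were called higher at both loci, 14 of 18 for Csf2 and 4 of 5 for Tnf, Lta and Ltb in HP1γ WT cells. In these cells 21 peaks were higher and 2 lower in Tconv, in HP1γ KO cells 15 and 3, in HP1α WT cells 20 and 1, and in HP1α KO cells 20 and 2. Higher peaks made up 24.5%, 22.4%, 24.9% and 23.5% of all peaks in these 4 comparisons, and calls of either direction 46.5%, 43%, 42.5% and 42.6%. Calls higher in all 4 numbered 13, namely 12 Csf2 peaks and Ltb -2.2 kb, and Il3 -10.8 kb was lower in all 4. In HP1γ WT cells Cd8b1 was at 21.3 to 23.8 CPM per kb in naive cells and 1.79 to 2.92 in Tconv, and Pax5 at 2.44 to 3.11 in naive cells and 4.12 to 5.53 in Tconv. Neither overlapped between naive cells and Tconv in any of the 4 comparisons. Summed Treg markers did not overlap in WT either. They were at 70.4 to 74.4 in naive cells and 75.3 to 87.8 in Tconv for HP1γ, and at 77.95 to 87.8 and 55.9 to 74.9 for HP1α. Nor did CD4 T cell markers in HP1γ WT, at 121.8 to 129.0 and 138.3 to 157.1, or myeloid markers in HP1α WT, at 32.7 to 41.3 and 28.7 to 31.6. The other Treg, CD4 T cell, myeloid and NK sums overlapped. The part of all these markers in the results was not tested.

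Csf2 -1.7 kb measured 0.131, 0.0898 and 0.253 CPM in naive and 4.91, 5.25 and 5.69 in Tconv HP1α WT cells, a log2 fold change of 5.03 (SE 0.30, adjusted p = 2.27e-10) by edgeR. The lowest Tconv library was far above the highest naive one. In the other 3 comparisons the log2 fold change of this peak was 4.15 (HP1α KO), 5.39 (HP1γ WT) and 2.61 (HP1γ KO). The Csf2 TSS peak, already open in naive cells, had smaller log2 fold changes, 1.40 (SE 0.20, adjusted p = 1.12e-05) in HP1α WT, 1.34 (SE 0.18, adjusted p = 3.93e-06) in HP1α KO and 1.60 (SE 0.19, adjusted p = 4.52e-07) in HP1γ WT by edgeR, and 0.44 (SE 0.24, adjusted p = 0.119) in HP1γ KO, which was not called.
The Csf2 +9.4 kb peak (chr11:54130611-54131550) went from 0.386, 0.203 and 0.0855 CPM in naive to 11.99, 20.2 and 14.4 in Tconv HP1γ WT cells and from 0.729, 0.869 and 0.164 to 6.22, 7.51 and 6.82 in KO cells. Naive and Tconv libraries were wide apart in both genotypes. At Csf2 +44.2 kb, HP1γ WT naive libraries held at most 3 reads each, and Tconv stood at least 56.2-fold higher than a level of 3 reads in each of them. The other distal Csf2 peaks called higher in HP1γ WT had log2 fold changes from 1.18 at -4.6 kb to 6.68 at +57.0 kb. The last of these rests on 3, 5 and 5 reads in the naive libraries. Il3 -4.5 kb rose by 2.92 (SE 0.44, adjusted p = 9.62e-06) in HP1γ WT by edgeR, and Il3 -10.8 kb (chr11:54168541-54169260) went the other way, from 4.29, 4.23 and 3.004 to 0.299, 0.529 and 0.661 CPM (-2.91, SE 0.26, adjusted p = 8.44e-09, edgeR).

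On chromosome 17 the promoters stayed under the fold limit with activation. In HP1γ WT cells the Tnf TSS peak went from 63.7, 66.5 and 70.1 to 87.0, 93.7 and 89.4 CPM, without overlap but under the fold limit, at a log2 fold change of 0.49. Lta TSS and Ltb TSS were at 0.06 and 0.27, and in HP1α WT cells Tnf, Lta and Ltb TSS were at 0.12, -0.35 and -0.12. Calls were made at flanking peaks. Ltb -2.2 kb (chr17:35410651-35411760) went from 2.16, 1.41 and 1.71 to 8.58, 8.32 and 9.17 CPM (2.38, SE 0.20, adjusted p = 5.06e-09, edgeR), and Tnf +3.0 kb, Lta -9.9 kb and Lta -14.0 kb rose by 1.82, 1.77 and 1.08 on the log2 scale. The last of these overlaps Nfkbil1, a neighbouring gene.

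**Figure D4:**
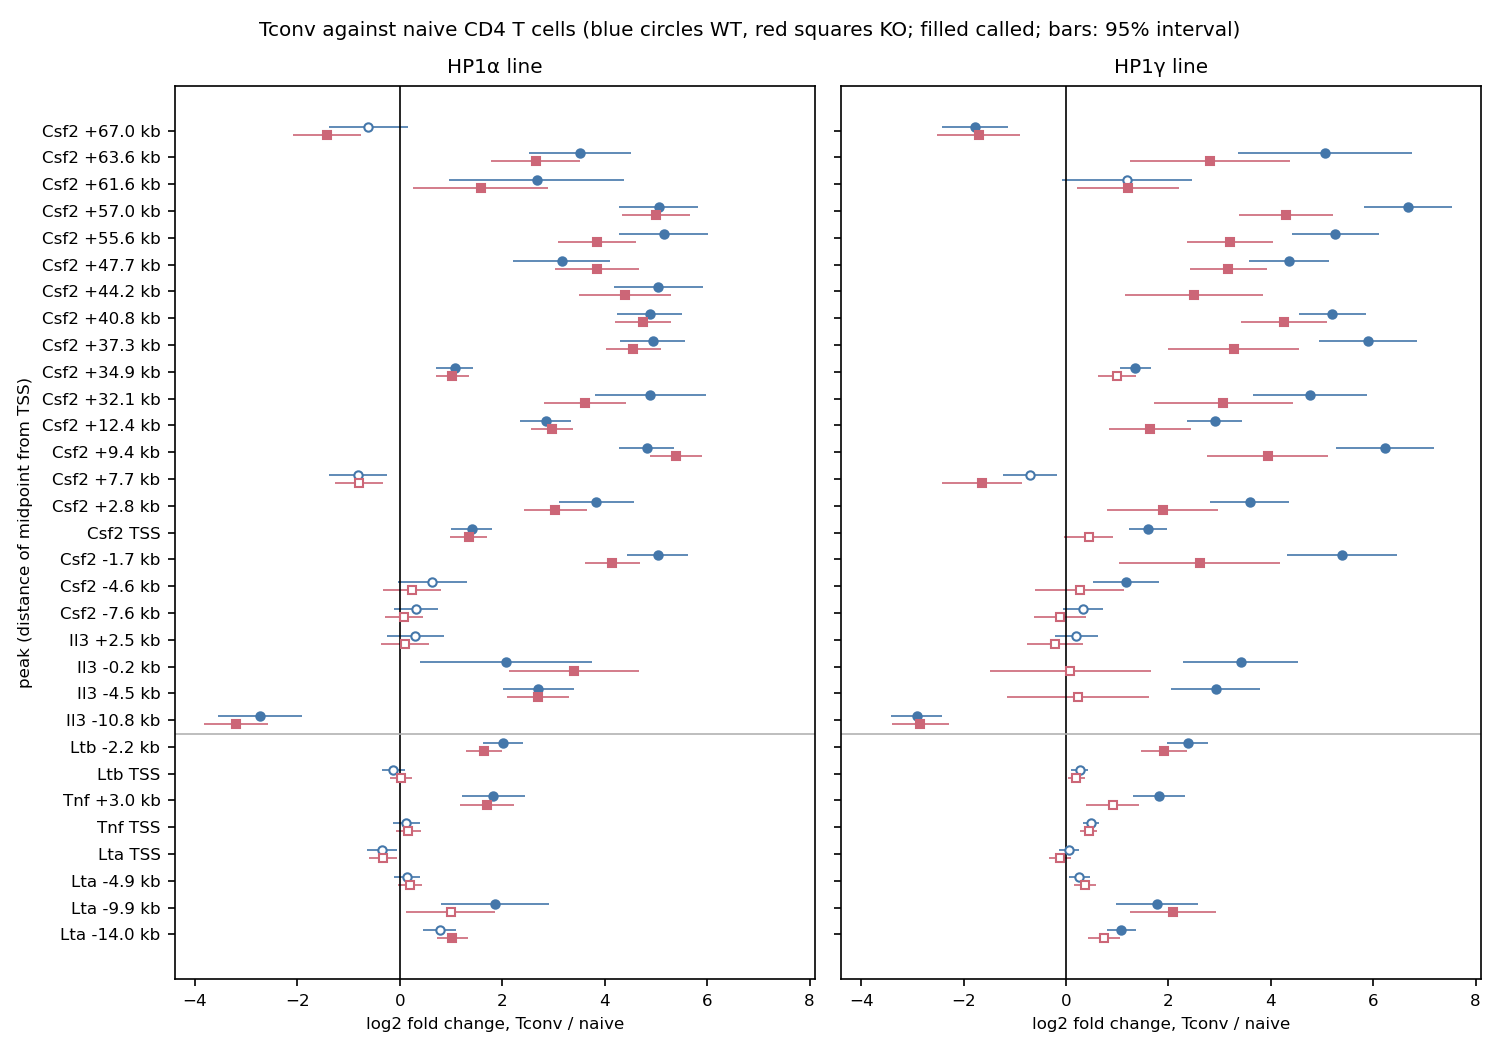
Log2 fold change of Tconv against naive cells (horizontal axis, with 95% intervals) for the member peaks (rows) in the HP1α line (left) and the HP1γ line (right), WT as blue circles and KO as red squares, filled where called. The 2 genotypes lie close together in the HP1α line, KO lies left of WT at most Csf2 and Il3 peaks in the HP1γ line, and Csf2 +44.2 kb in HP1γ WT is not drawn because the naive libraries held at most 3 reads.

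The activation differences were set side by side for the 2 HP1γ genotypes. Il3 -4.5 kb had 2.92 in WT and 0.24 in KO, Il3 -0.2 kb 3.41 and 0.08, and Ltb -2.2 kb 2.38 and 1.91. The test of the difference itself, added after the data were seen, did not reach the threshold. The interaction of genotype and activation was called at 0 of 31 peaks by edgeR (7 at an unadjusted p under 0.05, 8 called by DESeq2) against 0.014% of all peaks, with -1.16 (SE 0.31, adjusted p = 0.264) at Csf2 TSS and -2.69 (SE 0.88, adjusted p = 0.353) at Il3 -4.5 kb and a median of -0.92 over the 30 peaks with a fold. In the HP1α line it was also called at 0 peaks by edgeR (0 at an unadjusted p under 0.05, 0 by DESeq2), against 0% of all peaks, with a median of -0.13. KO and WT Tconv enter both this and the comparison of KO with WT, so the 2 results share libraries.

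Treg effects were read by comparing Tconv with and without Treg within a genotype. In the HP1α line 6 of 19 Csf2 peaks were called lower with Treg in WT and 5 of 19 in KO. For HP1α WT, 9 peaks were lower and 0 higher, against 6.77% of all peaks called, and for HP1α KO 6 were lower and 0 higher, against 0.548%. These counts rest on 2 WT libraries and 1 KO library with Treg, the lone library being assumed to vary like the other groups of the fit, which supply its spread. The WT count came to 0 when replicate 1 with Treg was left out and to 3 when replicate 1 without Treg was. It also fell with depth as a covariate, as given in the closing section. The KO count of 6 came to 0 with the earlier quasi-likelihood method of edgeR, to 0 with only the groups compared and to 3 with DESeq2. In the HP1γ line, 0 peaks were called in WT by edgeR (15 at an unadjusted p under 0.05) against 0.137%. In KO 3 were higher and 1 lower, against 8.15% of all peaks called, 6.1% higher and 2.06% lower.

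At the Csf2 TSS peak the kept HP1α WT libraries with Treg measured 3.61 and 6.42 CPM, against 17.6, 10.5 and 14.5 without Treg (-1.90, SE 0.45, adjusted p = 0.0159, edgeR), and the library left out by the study 12.9. The left-out library lay within the range without Treg. The 1 kept HP1α KO library with Treg, whose group adds no spread of its own to the SE, measured 6.49 CPM, against 19.6, 15.04 and 11.2 (-1.27, SE 0.28, adjusted p = 0.0485, edgeR), and the 2 left out 10.4 and 9.16. Csf2 -1.7 kb was at 0.601 and 2.14 CPM in the kept WT libraries and 4.91, 5.25 and 5.69 without Treg (-2.66, SE 0.54, adjusted p = 0.0054, edgeR), and at 7.55 in the left-out one. In KO it was at 1.15 CPM in the kept library and at 6.19 and 6.51 in those left out, which lay above all 3 libraries without Treg.
Csf2 +37.3, +12.4 and +9.4 kb were lower in both genotypes, by log2 fold changes of -2.37, -2.002 and -2.46 in WT and -2.51, -2.71 and -1.71 in KO. WT replicate 2 with Treg held 3, 4 and 4 reads at these peaks, and the KO values rest on 1 library. At +12.4 kb the left-out WT library was at 5.18 CPM, within the 4.12 to 5.94 without Treg. The left-out KO libraries were at 3.97 and 5.185, against 5.28 to 8.64. At +37.3 and +9.4 kb the left-out libraries lay below all those without Treg in both genotypes. Csf2 +34.9 kb (-1.65, adjusted p = 0.0169, edgeR) was lower in WT, with 2 reads in replicate 2 with Treg. Il3 -4.5 kb (-2.16) and Csf2 -1.7 kb (-1.72) were lower in KO, from 1 library with Treg.
In the same WT libraries the Ltb TSS peak measured 41.2 and 35.3 CPM with Treg and 91.9, 80.4 and 70.0 without (-1.04, SE 0.18, adjusted p = 0.00222, edgeR). Lta TSS (-1.04, adjusted p = 0.0212) and Lta -14.0 kb (-1.23, adjusted p = 0.0159, edgeR) were lower as well. Over all 3 libraries a group, the summed CD4 T cell markers were at 48.9 to 85.4 CPM per kb with Treg and 90.3 to 125.8 without, Pax5 at 12.1 to 15.6 and 4.14 to 5.72, NK markers at 12.2 to 16.6 and 7.37 to 11.8, and myeloid markers at 20.1 to 26.7 and 28.7 to 31.6. None of these overlapped. In KO the myeloid markers did not overlap either, at 31.1 to 33.6 with Treg and 34.4 to 36.6 without, while the CD4 T cell, Treg and NK sums, Cd8b1 and Pax5 did. The part of these markers in the results of either genotype was not tested.

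In HP1γ KO cells Csf2 +63.6 kb measured 4.31, 1.44 and 3.70 CPM with Treg and 0.626, 0.946 and 0.906 without (1.90, SE 0.36, adjusted p = 0.00121, edgeR). All 3 libraries with Treg were higher. Csf2 +61.6 kb (1.41, adjusted p = 0.00424) and Il3 -10.8 kb (1.17, adjusted p = 0.039) were also higher and Csf2 +55.6 kb lower (-1.20, adjusted p = 0.00921, edgeR), and the count of 4 came to 1 without KO Tconv with Treg replicate 1 and to 2 without KO Tconv replicate 3, to 2 with the earlier quasi-likelihood method and to 0 with only the groups compared. In these groups Pax5 was at 7.52 to 9.98 CPM per kb with Treg and 4.57 to 5.83 without, Ikzf2 at 16.0 to 18.02 and 10.9 to 12.7, Ctla4 at 21.9 to 25.0 and 10.4 to 19.2 and Il2ra at 9.55 to 15.6 and 19.1 to 20.7. None of the 4 overlapped, the summed Treg, NK, myeloid and CD8 markers did, and their part in the result was not tested. In HP1γ WT cells the Csf2 TSS peak was at -0.77 (SE 0.20, adjusted p = 0.0899) by edgeR. There the replicate numbers paired the libraries, and with the number as a block 2 peaks were called. Without the block, the count of 0 came to 4 when Tconv replicate 3 was left out and to 8 when Tconv with Treg replicate 2 was. Whether the Treg effect differed between genotypes was tested as an interaction, which called 0 of 31 peaks by edgeR in the HP1α line (5 at an unadjusted p under 0.05, 0.0461% of all peaks called) and 0 in the HP1γ line (3 at an unadjusted p under 0.05, 0.0014%), and DESeq2 called 0 in either line.

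In the HP1α line no peak of these genes passed the test between KO and WT in naive cells or in Tconv without Treg. By edgeR 0 of 31 peaks were called in naive cells (1 at an unadjusted p under 0.05, 0 by DESeq2, 0.00559% of all peaks called) and 0 in Tconv (3 at an unadjusted p under 0.05, 0 by DESeq2, 0.021%). In Tconv the Csf2 TSS peak measured 17.6, 10.5 and 14.5 CPM in WT and 19.6, 15.04 and 11.2 in KO, with overlap and a log2 fold change of 0.08 (95% interval -0.29 to 0.44), and Tnf TSS had 0.10 (-0.16 to 0.36).
With Treg, 2 peaks of the Tnf cluster were higher in KO and none lower, against 1.63% of all peaks, and 0 were called with GC offsets or with depth as a covariate. The KO group is 1 library here, with 50.7 M reads against 12.7 M and 1.49 M in the WT libraries, so the SE and p take their spread from the other groups of the fit. The Ltb TSS peak measured 83.0 CPM in the kept KO library and 41.2 and 35.3 in the kept WT libraries (1.05, SE 0.21, adjusted p = 0.0153, edgeR), with 53.5 and 57.5 in the left-out KO libraries and 37.3 in the left-out WT library. All 3 KO values lay above all 3 WT values. Lta -14.0 kb had a log2 fold change of 1.35 (SE 0.32, adjusted p = 0.0435), Lta TSS 0.96 (SE 0.29, adjusted p = 0.106) and Tnf TSS 0.90 (SE 0.24, adjusted p = 0.0652), by edgeR. With all 18 HP1α libraries 0 peaks were called by edgeR (6 at an unadjusted p under 0.05, 2 by DESeq2), against 0.741% of all peaks, with 0.84 (SE 0.25, adjusted p = 0.14) at Ltb TSS. The Csf2 TSS peak was at 0.71 (SE 0.55, adjusted p = 0.563) with the kept libraries, by edgeR. In the same comparison the peaks nearest to the neighbours Lst1, Aif1 and Ddx39b had median log2 fold changes of 1.15, 1.04 and 1.02. Over all 3 libraries a group, the summed CD4 T cell markers were at 60.5 to 113.5 CPM per kb in KO and 48.9 to 85.4 in WT, and Pax5 was at 4.73 to 11.7 in KO and 12.1 to 15.6 in WT. NK markers were at 10.4 to 11.6 in KO and 12.2 to 16.6 in WT and myeloid markers at 31.1 to 33.6 and 20.1 to 26.7, and these and Pax5 did not overlap between genotypes. Their part in the result was not tested. No test compared the HP1α with the HP1γ effect, since the lines were fitted apart.

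Receptors and signalling genes of these cytokines were listed beside the members, and few of their promoters were called. Of 25 such genes, 22 had a TSS peak, among them Il3ra, the 2 TNF receptors Tnfrsf1a and Tnfrsf1b, the lymphotoxin β receptor Ltbr, the protease gene Adam17 and the NF-kB and NFAT genes, while Csf2ra, Csf2rb and Csf2rb2 had none. In HP1γ KO against WT 0 of 22 were called in naive cells, Tconv or Tconv with Treg, and the median log2 fold changes were 0.05, -0.06 and 0.13. In the HP1α line 0 were called in naive cells and Tconv and 1 with Treg, Rela, an NF-kB subunit, at 1.21 (SE 0.29, adjusted p = 0.0395, edgeR), which with all libraries was not called. In Tconv against naive cells Nfatc2 was higher in HP1γ WT (1.11, adjusted p = 3.51e-08, edgeR). Ltbr was lower in HP1γ WT (-1.38, adjusted p = 0.000417, edgeR) and HP1α KO (-1.02, adjusted p = 0.00354, edgeR). Rela was lower with Treg in HP1α WT (-1.06, adjusted p = 0.0162, edgeR), and no other call was made on this list.
The extent of the changes was read from 8 neighbouring genes, 6 of which had a TSS peak. On the chromosome 11 side the peaks nearest to P4ha2, Pdlim4 and Acsl6 were lower in HP1γ WT Tconv than in naive cells in 11 of 16, 5 of 10 and 4 of 6 cases, and 1 P4ha2 peak was higher, against 22% of all peaks called lower. Of the 23 Csf2 and Il3 peaks between them 17 were higher. In HP1γ KO against WT Tconv 1 of 16, 0 of 10 and 1 of 6 of these peaks were lower, against 1.66% of all peaks, and with Treg 7 of 16, 3 of 10 and 1 of 6, against 5.38%. On the chromosome 17 side, of 10 peaks nearest to Lst1, Aif1 and Ddx39b, 0 were called in HP1γ KO against WT in Tconv or with Treg by edgeR. Over the TSS peaks of the 6 neighbours, Pdlim4 was lower in HP1γ KO with Treg (-1.21, adjusted p = 0.00773, edgeR) and Aif1 lower with Treg in HP1α WT (-1.47, adjusted p = 0.00265, edgeR). Ddx39b was higher in HP1α KO with Treg, at 1.03 from 1 KO library. Against naive cells, Acsl6, P4ha2 and Pdlim4 were lower in Tconv in all 4 comparisons, and Nfkbil1 was higher in both HP1γ genotypes.

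Profiles over the 12 group means of log2 CPM set the members apart into 2 patterns. Csf2 TSS and Il3 -0.2 kb correlated at r = 0.69, and Ltb TSS correlated with Tnf TSS at 0.96 and with Lta TSS at 0.95, while Csf2 TSS and Tnf TSS were at 0.38 and Il3 -0.2 kb and Lta TSS at -0.66. Among peaks over a protein-coding TSS on other chromosomes, the profiles most like Csf2 were those of Pde4a (0.97), Ly6g5b (0.94) and Axl (0.94), and those most like Il3 were Itgax (0.94), Tmem273 (0.93) and Hrh4 (0.92). Profiles close to that of Tnf included Lgals1 and Itgal (both 0.99), those close to Lta Pitpnc1 and Slc43a2 (both 0.99), and those close to Ltb Cltc (0.996) and Eif5a (0.99). The 12 points share libraries, depth and the groups with Treg of the HP1α line, so these values describe likeness only.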

How the data were processed

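ATAC-seq reads of 36 libraries were trimmed with Trim Galore 0.6.7 and aligned with BWA (versions from the submitters' processing notes), and duplicates and low-quality alignments were removed. The authors called peaks per sample with HMMRATAC, merged them with BEDTools and deposited raw counts per peak from featureCounts 2.0.3 on GRCm39, in which a read may count in several overlapping peaks. Of 71512 intervals, 3 without width were left out here. The HP1α fit held the 15 libraries the study kept, with all 18 as an alternative, and the HP1γ fit 18. Counts were tested with edgeR 4.0.16 (quasi-likelihood test, filterByExpr, TMM within a line, Benjamini-Hochberg adjustment over all peaks), and DESeq2 1.42.0 was an alternative. Calls required an absolute log2 fold change over 1 at an adjusted p under 0.05. Intervals are 1.96 SE a side and cover the spread between libraries. The code was tested on simulated counts.

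The members, gene lists and tests were chosen with earlier results of these data known. Named peaks are members that were called in a comparison between genotypes, conditions or Treg states, the TSS peaks (for Il3 the nearest peak), and listed genes that were called, with the 3 most alike promoters per member, of which some, and 1 peak sequence, are not reported here. Same-numbered libraries were paired where every correlation of their deviations from the group means was over 0.1, which held for HP1α KO and WT naive (0.25 to 0.50), HP1γ WT Tconv with and without Treg (0.20 to 0.29) and the HP1γ genotypes with Treg (0.15 to 0.32). Among marker lists, summed TSS peaks per kb ranged over all libraries from 42.0 to 87.8 CPM for Treg (5 of 5 genes with a peak), 1.79 to 24.1 for CD8 T cells (1 of 2), 20.1 to 41.3 for myeloid cells (4 of 7) and 7.37 to 16.8 for NK cells (2 of 4).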

Additional observations from a re-analysis of the deposited data

How the results depend on the processing

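Counts of called members are given here for the alternatives that moved them by over 1.5 times or across 0, and no peak called between genotypes changed sign under the alternatives run, while signs of single peaks were not followed in the activation and Treg comparisons. HP1γ KO against WT Tconv (9) gave 4 with members set by the nearest TSS of any gene type, 4 with the earlier quasi-likelihood method of edgeR, 2 with only the groups compared, and 2 to 10 without one replicate. With Treg (12) the counts were 2 by any gene type, 7 with depth as a covariate, 2 with only the groups compared and 1 to 12 without one replicate. In naive HP1γ cells (0) DESeq2 gave 3. HP1α KO against WT with Treg (2) gave 1 by any gene type, 1 with loess offsets, 0 with GC offsets, 0 with depth, 1 with the earlier method, 0 with only the groups compared and 0 to 1 without one replicate, and with all libraries (0) library size alone gave 1, loess offsets 1 and DESeq2 2. Activation by any gene type gave 5 of 21 in HP1α WT, 5 of 22 in HP1α KO, 5 of 23 in HP1γ WT and 2 of 18 in HP1γ KO, and without one replicate 20 to 21, 21 to 22, 22 to 23 and 13 to 19. Treg against none gave, in HP1α WT (9), 4 by any gene type, 4 with depth and 0 to 9 without one replicate, in HP1α KO (6), 3 by any gene type, 3 with DESeq2, 0 with the earlier method, 0 with only the groups compared and 4 to 6 without one replicate, and in HP1γ KO (4), 1 by any gene type, 2 with the earlier method, 0 with only the groups compared and 1 to 4 without one replicate. In HP1γ WT (0), loess offsets gave 3, the replicate block 2, the block with GC offsets 3, the block with depth 1 and leaving out one replicate 0 to 8. The interaction with activation in HP1γ (0) gave 8 with DESeq2 and 0 to 1 without one replicate. The replicate block changed the count by over 1.5 times in no other paired comparison. A smaller set of members explains the counts by any gene type, and for the others the cause was not tested. The interaction with activation, the earlier method and the block with GC offsets or depth were added after the data were seen. Leaving out the only kept HP1α KO library with Treg was not run.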
